A study of Mus musculus with 2 samples.

Results

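A set of 34 genes of mitosis and of the G2 phase before it was followed through the single cells of mouse corneal epithelium. The members were a list of gene names, and all 34 were found among the 17891 genes of the table, which held 33885 cells. Control and dry eye were each 1 library, made with 10x Genomics 3' chemistry. Both came from the same 7 male C57BL/6J mice, aged 10 weeks and with no transgene named, whose tear glands had been removed on the right side only, inside and outside the orbit. On day 9 the epithelium of 7 left eyes was pooled as control and that of 6 right eyes as dry eye, so the side of the eye and the treatment cannot be told apart. With 1 library per group no difference has a replicate check. Every difference is therefore given as a ratio of dry eye over control. Its exact 95% interval reflects counting error and nothing else, and no test was run.

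Mitosis starts when the kinase Cdk1, bound to its cyclins, is switched on, and Polo and Aurora kinases then help to build the spindle and to attach chromosomes to it. It ends when the anaphase-promoting complex, a ubiquitin ligase, marks cyclin B and other proteins for destruction and the cell is cut apart by cytokinesis. In the cornea, division takes place in the basal layer and at the limbus, the rim that holds the stem cells, and the wing and squamous cells above normally no longer divide. Many of these genes are switched on together late in the cycle, through promoters that hold CCAAT boxes, bound by the factor NF-Y, and a cell cycle homology region with the letters TTTGAA or TTTAAA, bound by the DREAM and MuvB complexes.

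Control had 17465 cells with 191493194 unique molecular identifiers (UMIs, tags that count a captured RNA molecule once), and dry eye 16420 cells with 207030777. The members took 91221 of these UMIs in control and 139902 in dry eye. The authors' annotation placed each cell in 1 of 13 classes, whose names are used here as given, and marked 5 of them with an asterisk whose meaning is not stated. Where 1 library supplied nearly all cells of a class, that class may be a feature of the library. Corneal marker genes (Krt12, Pax6, Aldh3a1 and Krt5) summed to 37043 CPM (UMIs scaled to a common library total) in control and 33389 in dry eye. Immune markers summed to 6.63 and 6.33 CPM, with Cd3e and Lyz2 at 0 in control, and the 2 stromal markers in the table to 0.272 and 0.700. The libraries shared 74 barcode sequences.

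Since many members are known to be switched on together, the promoters are shown for 6 of them. RefSeq promoters of the build GRCm38.p6, from 250 bases before to 50 bases after the start of transcription, were at hand for 31 of the 34 members, not for Ccna2, Tpx2 and Aurkb. Printed below, from 180 bases before to 20 after the start, are those of Cdk1 (chr10:69352893-69353092, minus strand) and Ccnb1 (chr13:100786467-100786666, minus strand), of Ccnb2 (chr9:70421535-70421734, minus strand) and Ube2c (chr2:164769749-164769948, plus strand), of Kif23 (chr9:61946780-61946979, minus strand), the member whose counts departed most from the others, and of Tacc3 (chr5:33657948-33658147, plus strand), the member with the highest ratio. Capitals mark, on either strand, the box CCAAT, the form TTTGAA and the form TTTAAA, and positions count back from the start of transcription.
Cdk1: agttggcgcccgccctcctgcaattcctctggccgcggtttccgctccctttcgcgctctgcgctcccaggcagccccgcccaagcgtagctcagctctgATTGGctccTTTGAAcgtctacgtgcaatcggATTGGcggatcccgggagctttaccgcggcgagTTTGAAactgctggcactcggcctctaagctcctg
Ccnb1: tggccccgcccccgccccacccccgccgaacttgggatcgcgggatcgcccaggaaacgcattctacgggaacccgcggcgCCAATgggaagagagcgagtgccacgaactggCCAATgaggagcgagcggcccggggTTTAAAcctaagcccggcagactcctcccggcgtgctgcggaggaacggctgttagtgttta
Ccnb2: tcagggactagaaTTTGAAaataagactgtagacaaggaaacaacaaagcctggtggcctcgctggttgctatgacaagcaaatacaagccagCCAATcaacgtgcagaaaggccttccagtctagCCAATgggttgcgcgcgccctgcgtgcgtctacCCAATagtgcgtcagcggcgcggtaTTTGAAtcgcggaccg
Ube2c: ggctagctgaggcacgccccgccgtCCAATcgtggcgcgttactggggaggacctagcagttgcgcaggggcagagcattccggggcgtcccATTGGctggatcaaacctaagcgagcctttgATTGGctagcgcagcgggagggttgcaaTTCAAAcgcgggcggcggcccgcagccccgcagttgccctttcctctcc
Kif23: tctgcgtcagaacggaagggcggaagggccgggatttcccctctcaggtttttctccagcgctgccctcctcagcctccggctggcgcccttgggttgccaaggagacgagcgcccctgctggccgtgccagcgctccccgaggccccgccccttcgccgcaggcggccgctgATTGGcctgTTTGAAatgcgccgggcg
Tacc3: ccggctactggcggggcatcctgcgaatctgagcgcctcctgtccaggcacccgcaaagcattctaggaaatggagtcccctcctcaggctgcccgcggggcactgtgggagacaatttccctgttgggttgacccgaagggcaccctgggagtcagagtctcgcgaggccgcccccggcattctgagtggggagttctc
In Cdk1 the 3 words CCAAT began at -208, which lies before the stretch shown, -80 and -48, with TTTGAA at -71 and -15. Ccnb1 had CCAAT at -99 and -67 and TTTAAA at -42, and Ccnb2 had CCAAT at -87, -54 and -21 with TTTGAA at -167 and at 5 bases after the start. Ube2c had TTTGAA at -29 and 6 CCAAT, of which those at -155, -88 and -57 lie in the stretch shown. Kif23 had CCAAT at -7 with TTTGAA at 3, and Tacc3 had none of the 3 words. Over the full 300 bases, TTTGAA or TTTAAA stood in 25 of 31 member promoters, 80.6%, beside 27.6% of all 32851 promoters and 24% of the promoters of 25 genes of DNA replication. CCAAT stood in 71.0% of member promoters, 37.4% of all and 60% of the replication genes. At least 2 CCAAT together with a TTTGAA or TTTAAA beginning no more than 50 bases before the start, or after it, were found in 12 of 31, 38.7%, against 0.989% of all promoters. Mxd3, Nuf2, Nusap1 and Sapcd2 held none of the 3 words either, so 5 of 31 lacked them, 16.1%, beside 45.7% of all promoters. These matches are letters in a window and not measured binding. The windows of Kif14 (from 136467598, plus strand) and Kif2c (up to 117179022, minus strand) lie inside genes annotated to begin at 136466343 and 117182639. Both windows count among the 25.

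Over all cells, every member was higher in dry eye, by 1.12-fold to 1.64-fold. The summed members had a ratio of 1.42 (1.41 to 1.43), and 10 of the 34 were at least 1.5-fold higher and 0 lower by as much. Of the 15237 genes with at least 20 UMIs, 9.39% were that much higher and 7.34% that much lower. The intervals of all 34 members lay above 1, as did those of 24.6% of all genes. The members' median log2 ratio was 0.50, beside -0.07 for all genes. The 10 cells richest in a member held between 2.07% (Birc5) and 6.72% (Fam83d) of its counts in dry eye. In control they held between 2.84% (Kif23) and 8.92% (Fam83d). In a bulk sum over a library, more cells in division and more RNA per such cell cannot be told apart, so the classes and the single cells are given further on.

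The kinases and cyclins that start mitosis were among the most raised, with 5 of 7 at least 1.5-fold higher, beside 9.39% of all genes. Their summed ratio was 1.51 (1.48 to 1.54). Cdk1, the mitotic kinase itself (chromosome 10, 69335146 to 69352938, GRCm38), had 19.5 CPM in control and 29.4 in dry eye, and its ratio of 1.503 (1.44 to 1.57) is just inside the threshold. Ccna2, cyclin A2, which acts in S phase and early mitosis (chromosome 3, 36564865 to 36572150), had 11.1 and 18.002 CPM, a ratio of 1.62 (1.53 to 1.71). The B cyclins, which carry Cdk1 through mitosis, stayed under the threshold, Ccnb1 with 12.5 and 17.8 CPM (1.43, 1.36 to 1.503) and Ccnb2 with 13.3 and 19.6 CPM (1.47, 1.39 to 1.54). Plk1, the Polo kinase, had 5.54 and 8.63 CPM, a ratio of 1.56. The Aurora kinases had nearly the same ratio, Aurka of the spindle poles 1.53 on 4.13 and 6.31 CPM, and Aurkb of the centromere 1.53 on 7.09 and 10.8 CPM.

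On the side of the ubiquitin ligase, both members stood near the top. Ube2c, the enzyme that hands ubiquitin to the anaphase-promoting complex (chromosome 2, 164769898 to 164778822), had 50.7 CPM in control and 79.6 in dry eye, 1.57-fold more (1.53 to 1.61). Cdc20, which brings targets to that complex, had 16.8 and 24.96 CPM, and its ratio of 1.49 (1.43 to 1.56) is just outside the threshold. Summed, the pair had a ratio of 1.55 (1.52 to 1.58).

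Centromere, kinetochore and checkpoint genes were uneven, with 3 of 7 at least 1.5-fold higher, beside 9.39% of all genes. Cenpa, the histone that marks the centromere, had 24.3 and 38.1 CPM (1.57, 1.51 to 1.63), and Birc5, survivin of the chromosomal passenger complex, 36.7 and 57.7 CPM (1.57, 1.53 to 1.62). Bub1, a checkpoint kinase, had 2.73 and 4.202 CPM, a ratio of 1.54 (1.38 to 1.72). Its relative Bub1b had 1.32, Nuf2 of the outer kinetochore 1.35, and Cenpe, the kinetochore motor, 1.36. Cenpf, a large kinetochore and nuclear matrix protein (chromosome 1, 189640606 to 189688086), had the lowest ratio of this group, 1.14 (1.10 to 1.17), on 36.6 and 41.6 CPM. The intervals of Cenpa and Cenpf did not overlap.

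Beside 9.39% of all genes, 1 of 10 spindle motors and microtubule proteins passed 1.5-fold. This was Tacc3, which steadies spindle microtubules (chromosome 5, 33658128 to 33678995), with 8.22 and 13.5 CPM, a ratio of 1.64 (1.54 to 1.74). The others lay between 1.21 for Ckap2, a microtubule-associated protein, and 1.47 for Tpx2, which activates Aurka on the spindle. Kif11, the motor that pushes the spindle poles apart, had 7.63 and 9.45 CPM, 1.24-fold more (1.16 to 1.33). Top2a, the topoisomerase that untangles sister chromatids, had 35.9 and 53.0 CPM (1.48), while Mki67, the coat protein of mitotic chromosomes that is used to mark dividing cells, had 25.9 and 33.3 CPM (1.29). The 4 genes of cytokinesis had a summed ratio of 1.30: Prc1, which bundles midzone microtubules, had 1.43, Kif20b 1.32, the contractile ring protein Anln 1.29, and Kif23, the motor of the midzone (chromosome 9, 61915905 to 61946774), 1.12 (1.07 to 1.17) on 18.03 and 20.2 CPM. Sapcd2, which acts in spindle orientation, and the transcription factor Mxd3 had 1.248 and 1.199.

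**Figure D1:**
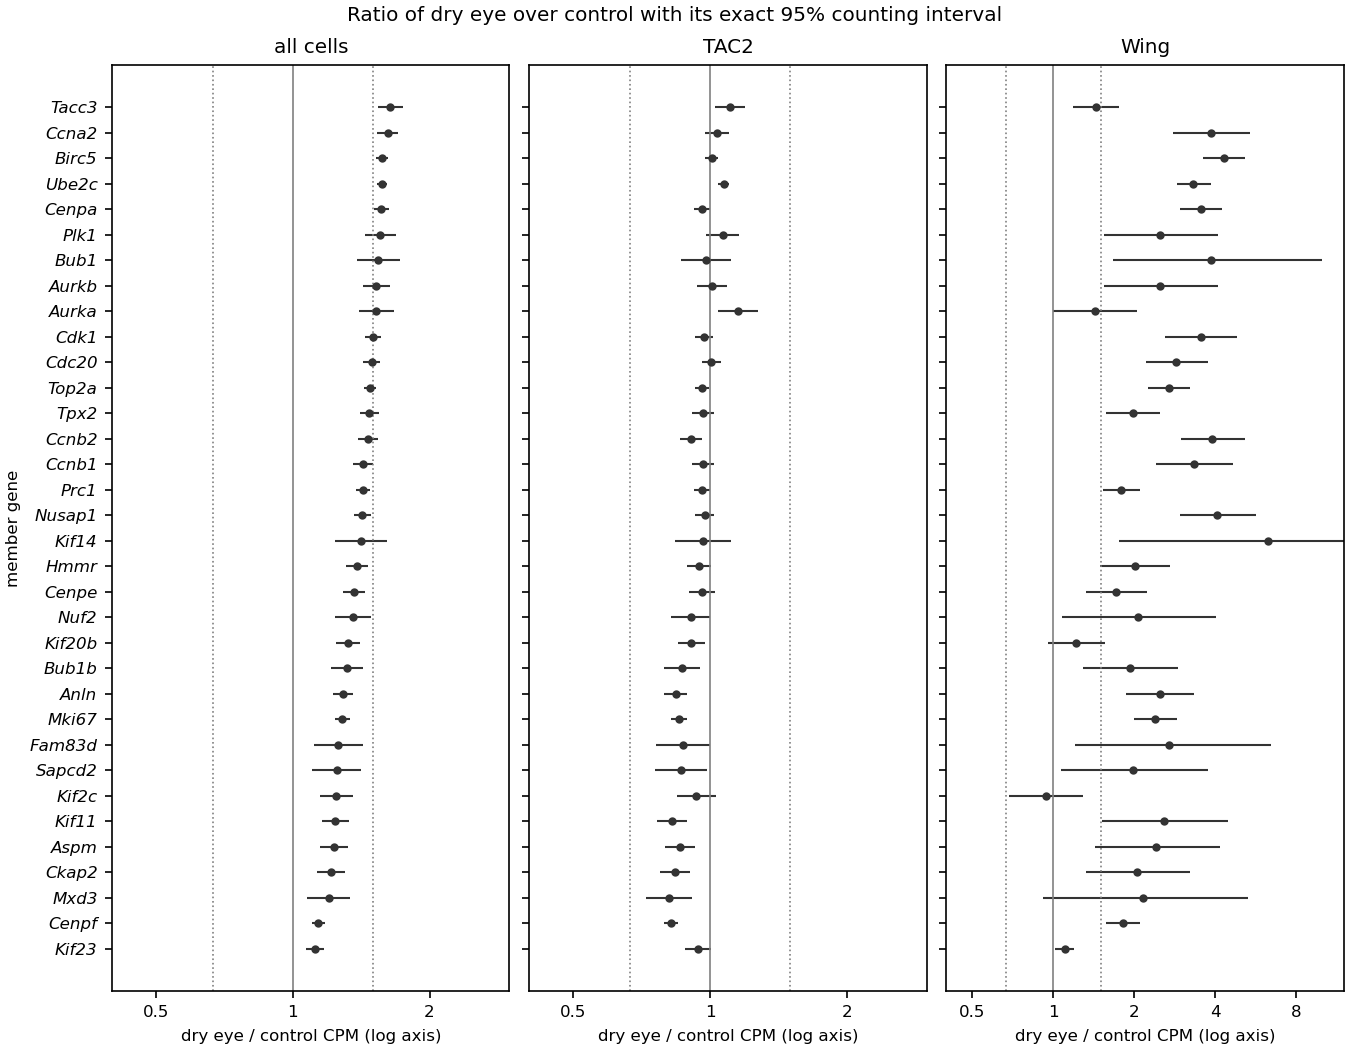
Ratio of dry eye over control CPM for each member over all cells, within TAC2 and within Wing cells, on log axes with 2 horizontal scales; points are ratios, bars are exact 95% counting intervals, the solid line marks 1 and the dotted lines 1.5-fold either way. All 34 points lie right of 1 over all cells, they gather around 1 in TAC2 (0.814 to 1.15), and most lie right of 1.5 in Wing, where the interval of Kif14, with under 20 UMIs, runs off the axis.

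The UMIs of the members lay mostly in the class TAC2, which held 83.3% of them in control and 74.7% in dry eye, in 8.49% and 11.02% of the cells. How the authors made the class is not given and these genes may have been used for it, so its high level is a description. Within TAC2 the members took 5753 CPM in control and 5494 in dry eye, which is 0.955 times as much (0.946 to 0.964). Scaled to the library's CPM, TAC2 cells brought 397 member UMIs in control and 505 in dry eye. TAC2* brought 0.413 from 21 cells in control and 39.7 from 572 cells in dry eye, Wing* 0.0157 and 16.0, TAC1* 0.992 and 9.79, and LSC* 0.0104 and 6.70. Conj cells brought 29.4 and 33.4, and Wing cells 23.2 and 32.4.

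**Figure D2:**
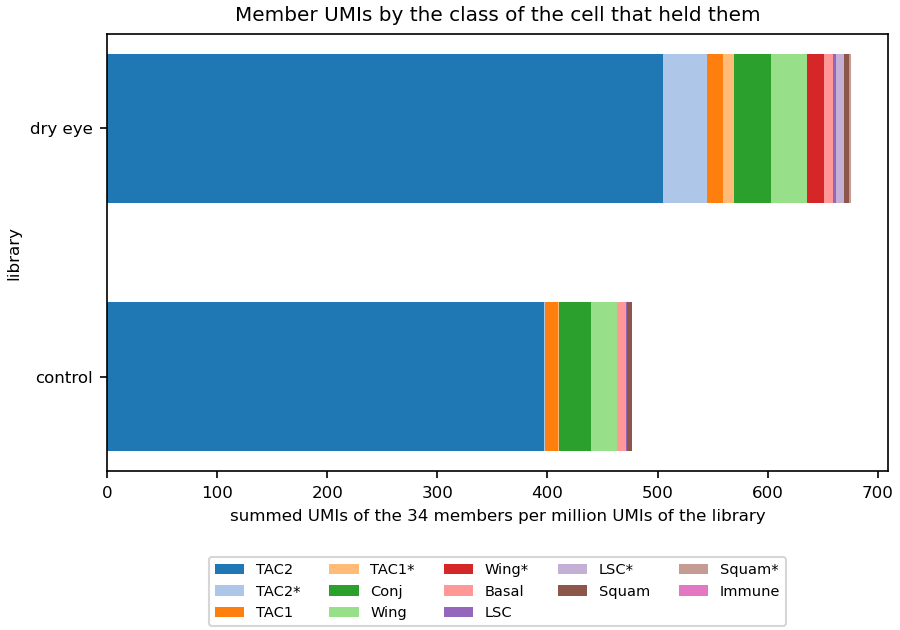
Summed CPM of the 34 members in each library, split by the class of the cell that held them. TAC2 is the longest block of both bars (397 and 505), and the TAC2* block is 39.7 in dry eye and too thin to see in control, at 0.413.

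When the dry eye classes were weighted to the control library's class shares, the summed ratio was 1.05 and none of the 34 members was 1.5-fold higher. At these shares 13 members lay below 1 and 21 above it, from Mxd3 at 0.879 to Tacc3 at 1.20. Kif11 (0.887) and Cenpf (0.885) were near the bottom, and Ube2c (1.16), Aurka (1.16), Ccna2 (1.15) and Plk1 (1.14) near the top. Without the starred classes the summed ratio was 1.47, and 12 members were at least 1.5-fold higher. The share of all genes past 1.5-fold was not computed for either setting.

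Within TAC2 cells, 1483 in control and 1809 in dry eye, 0 of 34 members were 1.5-fold higher or lower, where 4.60% of 11979 genes were higher and 6.41% lower. The median log2 ratio was -0.06 for the members and -0.06 for all genes. Small differences passed the counting interval on both sides: 3 members lay above 1 and 14 below, and of all genes 11.6% lay above and 19.8% below. Those above were Aurka, with 47.1 and 54.2 CPM (1.15, 1.04 to 1.27), Tacc3, with 79.9 and 88.3 CPM (1.11, 1.02 to 1.20), and Ube2c, with 644 and 691 CPM (1.07, 1.04 to 1.10). The lowest were Mxd3 at 0.814, Cenpf at 0.820 (0.792 to 0.850), Kif11 at 0.824, Ckap2 at 0.839 and Anln at 0.841. Mki67 went from 308 to 263 CPM in this class, a ratio of 0.854 (0.819 to 0.890), although it was 1.29-fold higher over all cells. Cdk1 (235 and 228 CPM), Ccnb1 (160 and 155) and Cdc20 (214 and 216) had intervals that held 1. Joined with TAC2*, whose members stood lower, TAC2 cells had a summed ratio of 0.777 and 3 members past 1.5-fold. The share of all genes past 1.5-fold was not computed for the joined cells.

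Conj cells, which in this annotation carry 6.17% and 4.94% of the member UMIs, also had 0 of 34 members past 1.5-fold in either direction, beside 4.89% of genes higher and 3.11% lower. Their summed level was 276 CPM in control and 267 in dry eye (0.968, 0.935 to 1.003). In TAC1 cells, which are rich in replication genes, the summed level was 266 and 286 CPM, and of 30 members with at least 20 UMIs 3 were higher by 1.5-fold, beside 3.93% of genes, and 3 lower, beside 4.35%. Cenpa was the highest there, with 14 and 40 UMIs (2.27, 1.21 to 4.52), and Nusap1, which binds spindle microtubules near chromosomes, the lowest with 35 and 24 UMIs (0.545, 0.310 to 0.943). Intervals lay above 1 for 3 members, beside 9.72% of genes, and below 1 for 1, beside 9.02%. In LSC cells the sum was 160 and 154 CPM, and the 15 members with enough UMIs split into 2 higher and 4 lower, beside 6.84% and 11.4% of genes. The interval of 1 of them, Anln, lay above 1, beside 5.01% of genes, and that of Cenpf below 1, beside 10.0%. Basal cells had 59.6 and 80.0 CPM, a ratio of 1.34 (1.252 to 1.44), and 9 of 25 members were 1.5-fold higher, beside 3.87% of genes, with Ccna2 at 3.41 on 14 and 35 UMIs. Kif2c was lower there, on 16 and 6 UMIs, beside 4.25% of genes that were lower.

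TAC1* cells, 133 in control and 473 in dry eye, had a summed level of 132 and 332 CPM, a ratio of 2.52 (2.17 to 2.93). Of the 23 members with enough UMIs 20 were 1.5-fold higher, but only 13 intervals lay above 1, and 17.0% of all genes were as much higher and 17.9% as much lower in this class. The other 11 members had fewer than 20 UMIs. Nuf2 and Ckap2 had 0 UMIs in control and 22 and 29 in dry eye, and the highest other ratios rested on few control UMIs: Aurkb with 1 and 51 UMIs (12.03, 2.06 to 484), Tpx2 with 2 and 54 (6.37, 1.68 to 53.9), Anln with 4 and 83 (4.89, 1.84 to 18.4) and Cenpa with 5 and 101 (4.76, 1.98 to 15.0). In the dry eye library Cenpa was 4.46-fold higher in TAC1* than in TAC1, while the summed members differed by 1.16-fold between these classes. There 4 members were 1.5-fold higher and 2 lower, beside 11.6% and 12.9% of genes.

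**Figure D3:**
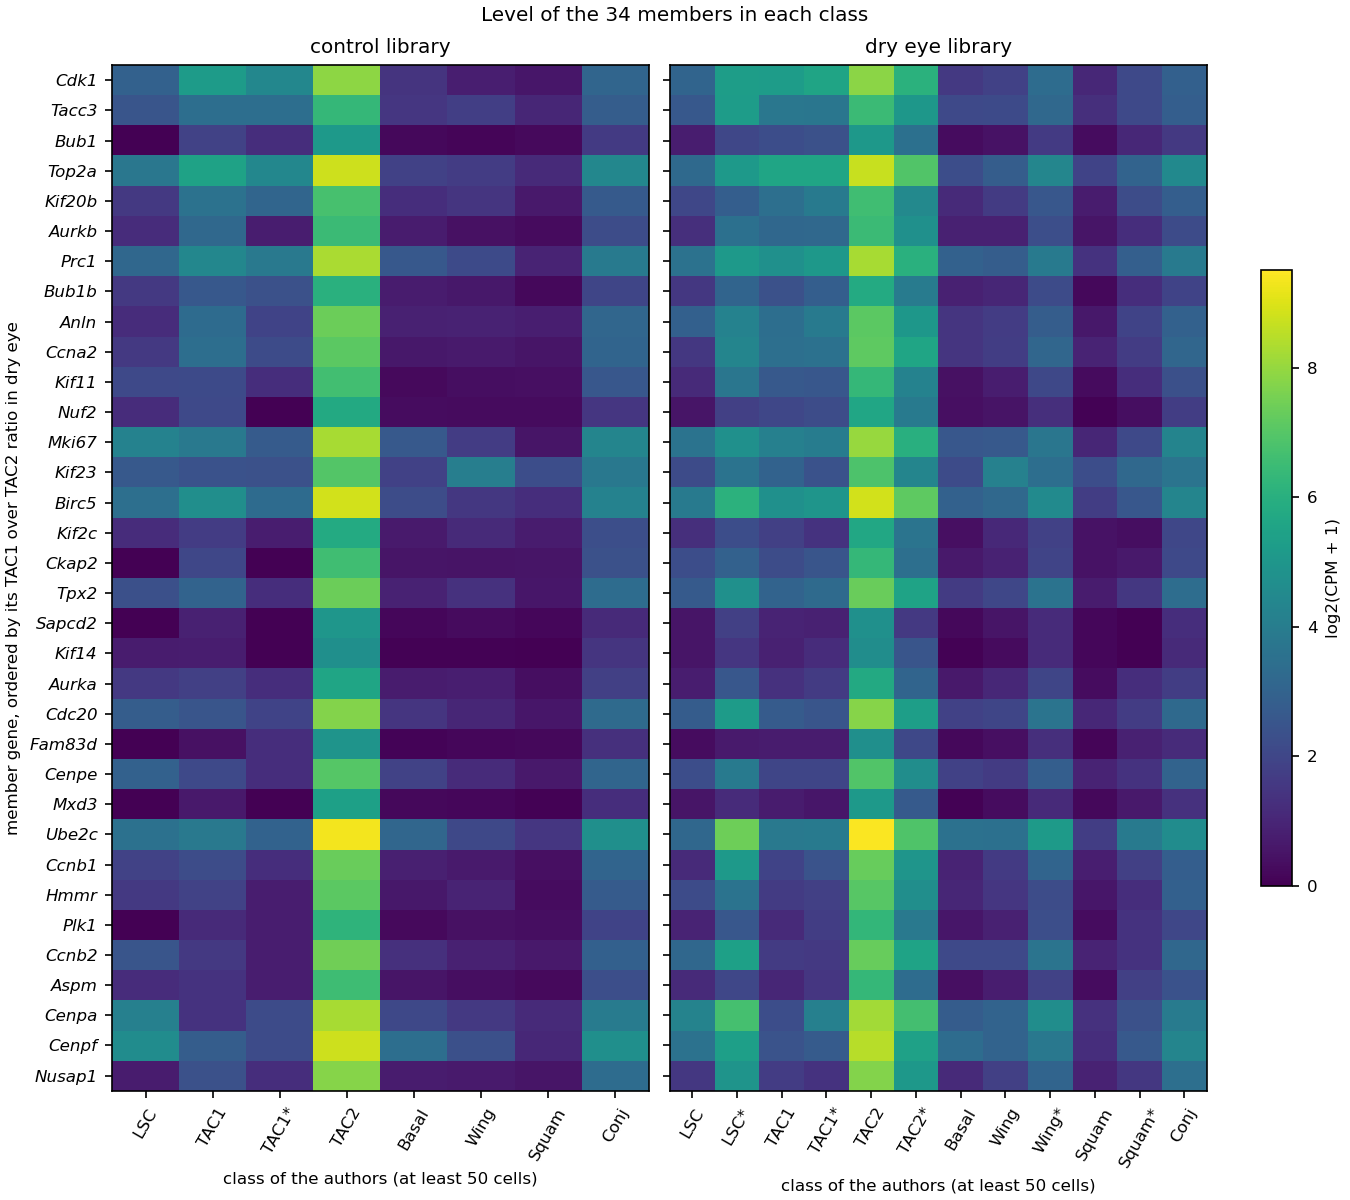
Level of each member, as log2(CPM + 1), in each class with at least 50 cells, in the control library (left) and the dry eye library (right), with members ordered by their TAC1 over TAC2 ratio in dry eye. TAC2 is the brightest column in both libraries, LSC* and TAC2* show as lighter columns in dry eye, and Kif23 stands out in the Wing column of both.

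The members were not equally separated between TAC1 and TAC2. Measured as the TAC1 level over the TAC2 level, Cdk1 was the least separated in both libraries, at 0.154 in control and 0.161 in dry eye, followed by Tacc3 (0.124 and 0.144). Then came Kif20b (0.106) and Top2a (0.101) in control, and Bub1 (0.115), Top2a (0.114) and Kif20b (0.106) in dry eye. The most separated in control were Cenpa (0.00535), Ccnb2 (0.0116), Fam83d (0.0120, on 3 UMIs in TAC1, 0.00247 to 0.0354) and Cenpf (0.0139). In dry eye they were Nusap1 (0.0105), Cenpf (0.0122) and Cenpa (0.0127). In control all 34 were lower in TAC1 by more than 1.5-fold, beside 13.5% of genes, and the summed ratio was 0.0463, against 0.0521 in dry eye. RNA of Cdk1 and Top2a is known to build up already during S phase, and that of Cenpf and Ccnb2 later. The classes may have been made with these genes, so the order is a description of the annotation.

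In Wing cells, 5651 in control and 3389 in dry eye, the members were also higher in dry eye. The summed members stood at 52.6 CPM in control and at 107 in dry eye, 2.04-fold higher (1.96 to 2.12). These are 0.00914 and 0.0195 of the TAC2 levels. Of 33 members with at least 20 UMIs, 28 were 1.5-fold higher, beside 6.36% of 13387 genes, and 29 intervals lay above 1, beside 13.9%. Birc5 had 162 and 519 UMIs (4.31, 3.60 to 5.17), Nusap1 52 and 157 (4.06), Ccnb2 72 and 209 (3.90), Ccna2 51 and 146 (3.85) and Cenpa 168 and 442 (3.54). The members' median log2 ratio was 1.27, while that of all genes was -0.14 in this class.

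The size of this ratio moved with the deepest cells. In each library the 5% of cells with the most UMIs were set apart, those above 28653 UMIs in control and above 34046 in dry eye. Such cells made up 13.7% of dry eye Wing cells and held 63.7% of their member UMIs, at 159 CPM against 68.1 in the other Wing cells. In control they made up 11.1% and held 38.8%, at 59.2 CPM against 49.1. Without them the Wing ratio was 1.39 and 13 members were 1.5-fold higher. The share of all genes past 1.5-fold was not computed without these cells. As a mean over cells, which gives each cell the same weight, the Wing ratio was 1.70. Wing* had the same trait, with 409 CPM in its deep cells and 112 in the others, and Conj cells the most, with 862 and 864 CPM in deep cells of control and dry eye and 98.6 and 91.8 in the rest. Within TAC2 the deep cells were lower, at 4027 CPM against 5843 in control and 3856 against 5583 in dry eye. In dry eye TAC2* the 6 deep cells were higher, at 2232 CPM against 1215. In dry eye LSC* the 4 deep cells had 1545 CPM against 742 and held 25.9% of that class's member UMIs. No doublet caller was run, and the part of doublets in these deep cells was not tested.

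**Figure D4:**
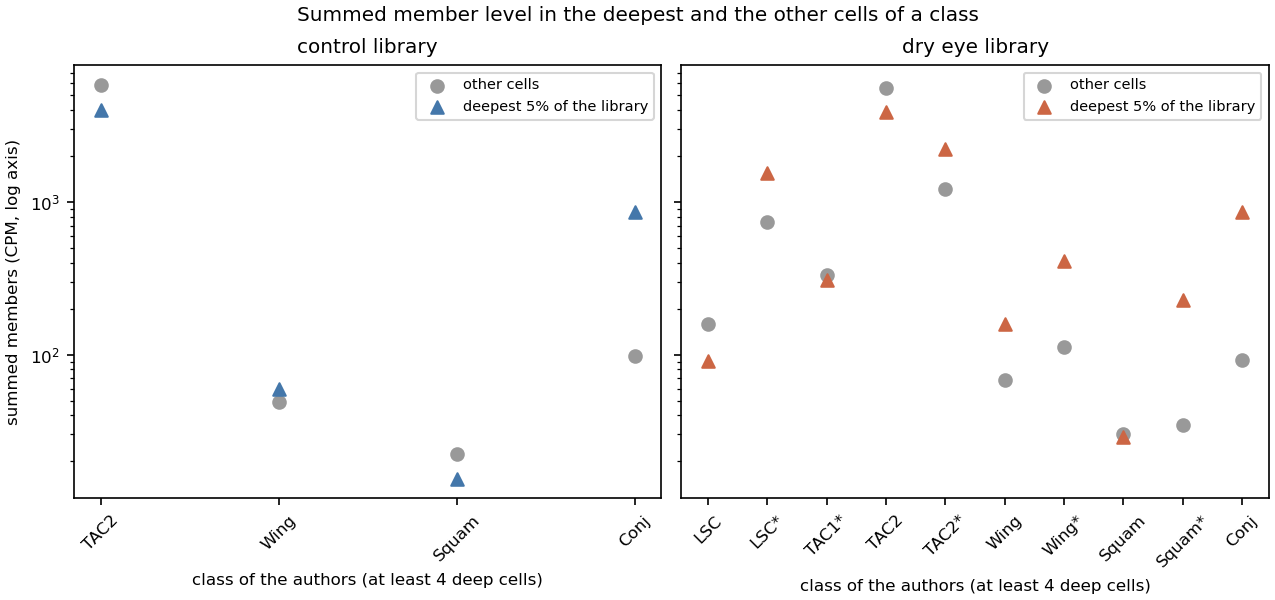
Summed member level, in CPM on a log axis, in the deepest 5% of each library's cells (triangles) and in the other cells (circles) of each class with at least 4 deep cells. Triangles lie below circles in TAC2, in Squam and in dry eye LSC and TAC1*. They lie above circles in Conj, in Wing and in dry eye Wing*, Squam*, TAC2* and LSC*.

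Squam cells, which should not divide, gave the level against which the low counts in other classes were set, since free RNA can add UMIs to any cell and was not measured. Squam held 21.4 CPM in control and 30.01 in dry eye (1.40, 1.27 to 1.54), and 13 of 23 measured members were 1.5-fold higher, beside 5.34% of genes, and 1 lower, beside 16.4%. Wing cells exceeded Squam cells by 0.542 member UMIs per cell in control and 1.63 in dry eye. After each cell was thinned to 3000 UMIs, the excess was 0.0768 and 0.134. The part of free RNA in the Wing ratio was not tested.

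Kif23 was the exception among the members. Wing cells held 38.4% of its UMIs in control and 26.0% in dry eye, and TAC2 only 46.7% and 52.4%, where 29 members had at least 80.9% in control. Its level in Wing was 15.7 CPM in control and 17.3 in dry eye (1.10, 1.01 to 1.19), and in Wing cells outside the deepest 5% it was 15.6 and 15.7 CPM. In Wing* it was 0.565 times its level in Wing, while the other 33 members were 1.82-fold to 5.70-fold higher there, beside 14.2% of genes higher and 18.2% lower. Over 19 class profiles its log2 level followed the summed members with r = 0.808, the lowest of the 34, where Birc5 had 0.992. The profiles share libraries and depth, so these values are descriptions. The highly expressed ribosomal gene Rplp1 begins 1363 bases beyond the 3' end of Kif23 on the same strand, with 3723 and 3606 CPM in Wing, and its part in the Kif23 counts was not tested. Tacc3 was the next member outside TAC2, with 67.0% of its control UMIs in that class, followed by Kif2c, a microtubule depolymerase, with 75.1%, Kif20b with 76.5% and Aurka with 78.6%. Kif2c (0.941), Kif23, Kif20b (1.22), Aurka (1.43) and Tacc3 (1.44) were also the 5 measured members that stayed under 1.5-fold in Wing.

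To count cells and not molecules, each cell was thinned to 3000 UMIs and called M-high when it held a UMI of at least 4 different members. The M-high share was 6.79% of control cells (1111 of 16371, 6.41 to 7.18) and 11.1% of dry eye cells (1732 of 15636, 10.6 to 11.6). The cells with fewer UMIs, 1094 of control and 784 of dry eye, had to be left out. Without thinning, the same cells gave 9.80% and 17.4%. Squam and Squam* cells together gave a background of 0.0670% (2 of 2987) and 0.163% (5 of 3066). Squam cells had median depths of 9342.5 and 9518 UMIs, against 8248 and 9086.5 over all cells. Over each library the cut passed through few cells, since 112 control and 197 dry eye cells held exactly 4 members and 156 and 273 held 3. In some classes a larger part of the M-high cells held exactly 4. These were 23 of 39 in control TAC1, 28 of 49 in dry eye TAC1 and 8 of 12 in dry eye Wing. In dry eye TAC2 they were 99 of 1396. TAC2 held 92.0% of M-high cells in control and 80.6% in dry eye.

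**Figure D5:**
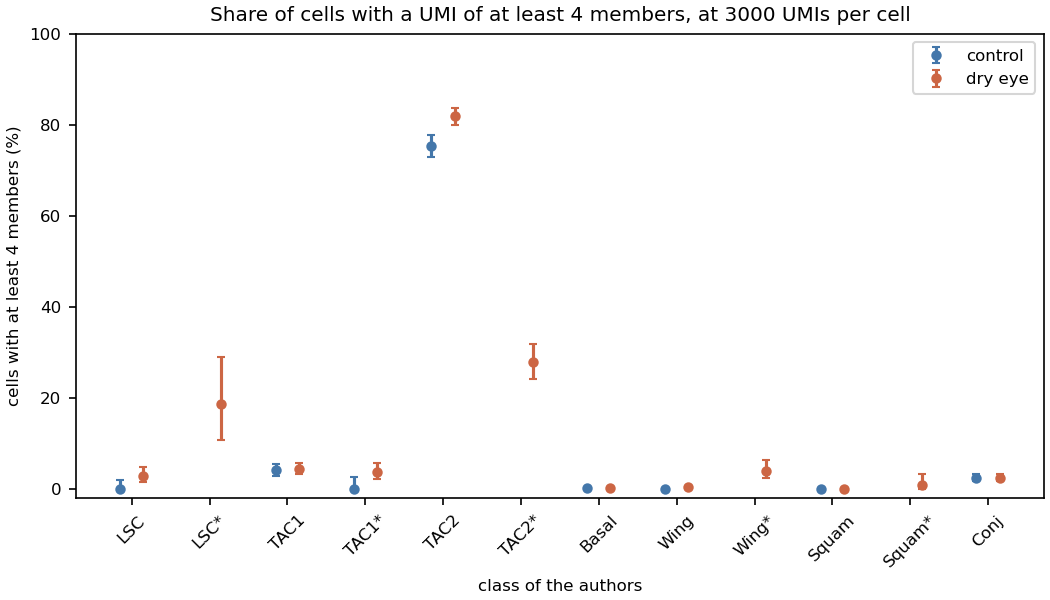
Share of cells, in percent, that held a UMI of at least 4 different members after thinning to 3000 UMIs, by class with at least 50 cells, for control and dry eye; bars are exact 95% binomial intervals. TAC2 stands highest at 75.4% and 81.9%, TAC2* and LSC* follow at 27.9% and 18.8%, and all other classes lie under 5%.

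Within TAC2 the M-high share was 75.4% for control (73.0 to 77.7) and 81.9% for dry eye (80.0 to 83.7), although the summed level was slightly lower in dry eye. M-high cells of TAC2 held a median of 18 member UMIs per 3000 in control and 16 in dry eye. The per-cell share of UMIs given to the members had a median of 0.407% in control TAC2 cells and 0.446% in dry eye ones, and reached 2.38% and 2.06% in the highest cell. So dry eye TAC2 cells more often passed the cut, and those that passed held no more member UMIs than control ones. In TAC1 the share was 4.11% and 4.40%, in Conj 2.44% and 2.41%, and in Wing 0.0913% and 0.365%. M-high Conj cells were deep, with medians of 29114 and 37004 UMIs before thinning, against 10169 and 10563 in other Conj cells. M-high Wing cells also were, at 20976 and 38658 against 10963 and 12168. Over all TAC classes together the share was 43.2% in control and 42.1% in dry eye.

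In LSC cells, M-high cells were found after thinning in dry eye alone. LSC had 0 of 185 in control, which allows a share of up to 1.62% (3 cells) or 1.97% by the exact limit, and 14 of 488 in dry eye, 2.87% (1.58 to 4.77). Without thinning the same cells gave 6.49% and 6.56%, so the gap was not seen at full depth. LSC* had 15 M-high cells of 80 in dry eye, 18.8% (10.9 to 29.0), and 6 cells in all in control. In dry eye the summed level was 858 CPM in LSC* against 154 in LSC, 5.58-fold more (5.08 to 6.14), at median depths of 16145 and 5478.5 UMIs. All 24 members with at least 20 UMIs were at least 1.5-fold higher, beside 18.4% of genes, and the other 10 members had fewer UMIs. Ccnb1 had 54 UMIs in LSC* and 5 in LSC (28.5, 11.5 to 91.3), Ube2c 273 and 34 (21.2, 14.8 to 31.2) and Nusap1 47 and 8 (15.5). The replication genes had a median log2 ratio of -0.63 there, and all genes one of -0.31. None of the 15 M-high LSC* cells held at least 4 of 30 replication genes, which allows a share of up to 21.8% by the exact limit, whereas 39.9% of M-high TAC2 cells in that library did.

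TAC2* held cells with many members and cells with none. Its summed level in dry eye was 0.228 times that of TAC2 (0.223 to 0.234), and all 34 members were at least 1.5-fold lower, beside 20.8% of genes. The ratio ran from 0.0752 for Sapcd2, 0.116 for Aspm, which acts at the spindle poles, and 0.117 for Cenpf up to 0.336 for Ccna2, 0.342 for Cenpa and 0.363 for Tacc3. The replication genes did not share this, with a median log2 ratio of 0.08. Of 559 cells 156 were M-high, 27.9% (24.2 to 31.8). Before thinning, these 156 held 87.6% of the member UMIs of the 559, at a median depth of 12711.5 UMIs against 9375 in the others. The median thinned TAC2* cell held no member UMI. M-high TAC2* cells had a median of 9 member UMIs per 3000 against 16 in TAC2. Of these cells 59.6% (51.5 to 67.4) also held at least 4 replication genes, against 39.9% (37.3 to 42.5) in TAC2. Over all M-high cells that share was 40.0% for control (37.1 to 42.9) and 41.9% for dry eye (39.6 to 44.3).

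M-high cells of the 2 libraries differed in their keratins, as did the other cells. Krt14, the keratin of basal layers, had a UMI in 62.9% of M-high cells in control and 89.7% in dry eye, and in 20.8% and 54.6% of the other cells. Krt12, the keratin of corneal differentiation, was found in 99.4% of M-high cells of both. Gpha2, a limbal stem cell gene, was seen in 11.5% and 16.8% of M-high cells, against 10.3% and 14.5% of the others, so M-high cells differed little from the rest in it. Krt15, also on the limbal marker list, was seen in fewer M-high cells, 25.5% and 25.9%, against 48.8% and 53.0% of the others. Krt6a was seen in 23.6% and 45.03% of M-high cells, against 67.6% and 74.5% of the others. Krt13, Krt19, Krt16 and Krt4 were likewise found in a smaller share of M-high cells in both libraries. Most M-high cells were TAC2 cells, so these gaps also set that class against the others. Within TAC2, M-high and other cells were close in Krt14, 65.4% and 67.6% in control and 89.2% and 90.9% in dry eye. For Krt15 they had 23.2% and 21.6% in control and 23.2% and 24.9% in dry eye. Krt6a had 20.9% and 19.5% in control and 36.6% and 35.0% in dry eye. Krt13, Krt19 and Krt4 were seen in more M-high than other TAC2 cells in both libraries, and Krt16 in fewer. Ifitm3, an interferon-inducible membrane protein, was seen in 16.4% and 37.3% of M-high cells, against 8.21% and 24.1% of the others. Within TAC2, M-high cells did not exceed the other cells in Ifitm3, at 17.0% against 17.4% in control and 31.3% against 40.5% in dry eye. In dry eye, M-high TAC2* cells had 20.4 Krt14 and 21.6 Krt12 UMIs per 3000, where M-high TAC2 cells had 6.13 and 43.2. Ifitm3 was found in 85.9% of M-high TAC2* cells and 31.3% of M-high TAC2 cells, and the stress keratin Krt6a in 88.5% and 36.6%.

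Other genes of the cycle, from lists chosen like the members, also had medians above that of all genes. Of all genes, 9.39% were at least 1.5-fold higher over all cells and 7.34% that much lower. Of 67 other G2 and M genes 14 were at least 1.5-fold higher over all cells and 0 lower, with a median log2 ratio of 0.43. They ran from Shcbp1 at 1.80 and the kinetochore gene Spc24 at 1.67 to the tubulin Tubb4b at 0.817 and securin, Pttg1, at 0.765. Of 30 replication genes 19 were higher and 0 lower, with a median of 0.65 and with Hells (2.35) and Uhrf1 (2.08) highest and Pcna (1.12) and Prim1 (1.003) lowest. Of 22 transcription factors of the cycle 8 were higher and 0 lower, with a median of 0.21, led by E2f1 at 1.89 and E2f8 at 1.79 and ending with Rbl2 at 0.793 and Lin52 at 0.718, a subunit of the MuvB complex. Of 25 G1 cyclins, inhibitors and brakes 3 were higher, near the share of all genes, and 0 lower, with a median of 0.12. The E cyclins Ccne2 (1.66) and Ccne1 (1.65) were highest, and the inhibitor Cdkn1b (0.835) and the stress gene Gadd45a (0.756) lowest.

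Among the genes outside the list whose class profile was most like that of the summed members were Cdca8 (r = 0.985), H2afx (0.979), Knl1 (0.968), Sgo2a (0.966), Incenp (0.966), Cdca3 (0.965), Bora (0.963), Foxm1 (0.963) and Cdca2 (0.963), over 19 profiles of log2(CPM + 1). Of these, 8 were on the list of other G2 and M genes, and Foxm1 was on that of transcription factors. Cdca8, borealin of the passenger complex, had 21.7 and 34.4 CPM, a ratio of 1.59 (1.53 to 1.65). Foxm1, a factor that drives the G2 and M genes, had 2.34 and 3.31 CPM, a ratio of 1.41 (1.254 to 1.60), and 26.4 and 24.5 CPM within TAC2.

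For some members the gene that gave the counts is uncertain. Ube2c overlaps Tnnc2, Ccna2 overlaps Exosc9, Cdc20 overlaps Elovl1, Mxd3 overlaps Prelid1 and Prc1 overlaps Rccd1 on the opposite strand at the 3' end, and no source used here says whether reads were counted by strand. Ccnb1 and Ccnb2 each have 1 annotated pseudogene copy that could share reads.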

How the data were processed

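Raw UMI counts for every gene in every cell were deposited by the authors, and a second deposited table of cells gave each cell's library and class. All values were whole and the highest was 7968. The submitters' processing notes name Cell Ranger 6.0.1, Seurat 4 and the build mm10. Cell filters and the way classes were made are not given in the sources used here. Counts were summed per library or class and divided by the total to give CPM, so 1 UMI equalled 0.00522 CPM (control) or 0.00483 CPM (dry eye). Ratios had Clopper-Pearson intervals computed on how the counts divided between the libraries, and shares exact binomial ones. UMIs of a pool are not independent animals, so intervals and floors of 3 counts cover counting error only. A gene needed at least 20 UMIs over both sides of a comparison, and a class at least 100 cells in each library. Cells were thinned to 3000 UMIs with a fixed seed, no doublet caller was run, and free RNA was not removed. Gene coordinates came from GENCODE vM21 and promoters from RefSeq. The members and lists were chosen with earlier results of these data known. Named were all members, of each other list the 2 highest and 2 lowest ratios with at least 50 UMIs, and the 10 genes outside the list with at least 200 UMIs most alike in profile, of which 1 is not reported here. Corneal, limbal, conjunctival, superficial, immune, stromal, melanocyte, endothelial and nerve sheath markers were summed: the limbal list gave 4357 and 4381 CPM, the conjunctival 2750 and 4092, the superficial 992 and 1255, and the melanocyte, endothelial and nerve sheath genes in the table at most 2.28. Lum, Kera, Col1a1, Col1a2, Tyrp1, Cdh5 and Sox10 were not analysed here. The interval calculation was tested on simulated counts. Python 3.11.15, numpy 2.4.6, scipy 1.17.1 and pandas 2.3.3 were used. Alternatives were the fold, the count minimum, the depth, the scaling, the class shares and leaving out starred, deep or member-rich cells, and those within Wing were chosen after seeing the data.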

Additional observations from a re-analysis of the deposited data

Results flagged for a closer look

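For 13 members the counting intervals lay above 1 in one class and below 1 in another. The difference between the classes was not tested, and over the 217 pairs of class and member compared, 68 intervals lay above and 17 below 1. The share of all genes with intervals on both sides of 1 in this way was not computed, so the 13 cannot be set against it. Of the 13 members, 8 were highest in Wing and below 1 in TAC2: Ccnb2 (3.90 in Wing and 0.910 in TAC2), Top2a (2.69 and 0.961), Fam83d, which positions the spindle (2.69 and 0.871), Kif11 (2.57 and 0.824), Aspm (2.41 and 0.859), Ckap2 (2.05 and 0.839), Sapcd2 (1.98 and 0.862) and Bub1b (1.92 and 0.868). Nusap1 had 4.06 in Wing and 0.545 in TAC1, and Cenpf had 1.82 in Wing and 0.473 in LSC. Mki67 (2.71 and 0.854) and Cenpa (4.76 and 0.960) were highest in TAC1* and below 1 in TAC2. Anln was highest in LSC, at 4.93 on 2 and 28 UMIs, and had 0.841 in TAC2. Within Wing, 28 members were 1.5-fold higher with all cells, beside 6.36% of genes, and 13 without the deepest cells.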

How the results depend on the processing

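Over all cells every member stayed above 1 under scaling by the median ratio of genes (1.18 to 1.72) and as a mean over cells (1.08 to 1.68), but not at the control class shares. The count of members 1.5-fold higher, 10, became 5 as a mean over cells, 0 at the control class shares, 16 after scaling, 26 at a lower fold and 0 at a fold of 2. It was 9 to 12 under the other 6 alternatives. The share of all genes past each threshold was not computed under any alternative. The summed ratio became 1.37, 1.05 and 1.49 under the first 3, 1.47 without starred classes, 1.40 without the 5% deepest cells and 1.43 without the 10 cells richest in members. The median log2 ratio became 0.062 at the control class shares and 0.58 after scaling. The median ratio of genes that was used for scaling was -0.07 over all cells and -0.14 in Wing, on the log2 scale. The M-high shares of control and dry eye were 9.80% and 16.1% with at least 2 members, 5.56% and 8.69% with at least 6, 6.06% and 9.36% at 2000 UMIs, 7.88% and 13.5% at 5000, and 9.68% and 17.1% of all cells without thinning. Dry eye was higher under each. Within TAC2 the count of 0 became 3 with TAC2* joined, and the summed ratio became 0.777 with TAC2* joined, 0.992 as a mean over cells and 0.989 after scaling. Within Wing, 28 members became 13 without the deepest cells, and the ratio became 1.70 as a mean over cells, 1.39 without the deepest and 2.24 after scaling. Without M-high cells it was 1.97, with 28 members. For TAC2* over TAC2 the mean over cells gave 0.199 and leaving out the deepest cells 0.218. No direction turned in these sums. No paired analysis was possible because each group is 1 library.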
